A study of Arabidopsis thaliana with 8 samples.

Results

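Replication licensing genes were followed across Arabidopsis thaliana endosperm of 4 crosses. The 10 genes were taken by identifier from a table of 34133 genes: the 6 subunits of the MCM helicase (MCM2 AT1G44900, MCM3 AT5G46280, MCM4 AT2G16440, MCM5 AT2G07690, MCM6 AT5G44635 and MCM7 AT4G02060), both PCNA genes (PCNA1 AT1G07370 and PCNA2 AT2G29570), CDC45 (AT3G25100) and CDC6 (AT2G29680). The genes are listed by identifier and not by a measured value, though they were chosen with earlier results of these data known. All 10 passed the filter on low values that left 19719 genes to test. Endosperm was captured by laser microdissection from seeds at 6 days after pollination and sequenced as messenger RNA. The crosses were ein2-5 x ein2-5, ein2-5 x Col-0, Col-0 x ein2-5 and Col-0 x Col-0, with 2 libraries of each. Col-0 is the common wild type, and ein2-5 carries a loss-of-function allele of EIN2, a protein that passes the ethylene signal from the endoplasmic reticulum to the nucleus. The mutation is in every cell of the mutant plants, so the seed coat, a maternal tissue, has the mother's genotype, while the endosperm carries alleles of both parents. Mothers were emasculated and then pollinated by hand, all plants grew in long days, and the name before the x was read as the mother, since the labels leave the order of the names unexplained.

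Before S phase, the origin recognition complex and CDC6 load the MCM ring of 6 related subunits onto DNA at replication origins, a step called licensing. CDC45 and the GINS complex then join the loaded ring and turn it into the moving helicase, while PCNA encircles DNA behind it and holds the polymerases. Transcription of many of these genes peaks at the passage from G1 to S phase, and E2F factors, held in check by the retinoblastoma-related protein RBR, bind short sites in a number of their promoters. In a young Arabidopsis seed the endosperm first multiplies its nuclei without dividing walls and then forms cells, after which nuclear division slows. The roles given below for single ring subunits were worked out in yeast and animals.

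The sequences upstream of the members are shown because several of them share E2F-type letters, a feature that the choice by identifier did not use. Windows of 250 bases ending just before the annotated gene start were read from the RefSeq annotation of TAIR10.1. Both strands were searched for the 8-base E2F forms TTTCCCGC, TTTGGCGC, TTTCGCGC and TTTGCCGC, for the same forms without their leading T, for the site II letters TGGGCC and TGGGCT, and for the telo-box AAACCCTA. An 8-base match always contains a 7-base match. The windows were chr1:16969964-16970213 on the plus strand for MCM2, chr5:18773707-18773956 on the minus strand for MCM3, chr2:7130730-7130979 on the minus strand for MCM4, chr2:3527501-3527750 on the minus strand for MCM5, chr5:18010668-18010917 on the minus strand for MCM6 and chr3:9143666-9143915 on the plus strand for CDC45. Each runs 5′ to 3′ toward the gene, with 8-base E2F matches in capitals, and a match on the opposite strand reads as the reverse complement. CDC45 is given as a member whose window holds no match to any of the forms searched. Near its end stand the letters tttggcgg, which differ from TTTGGCGC in the last base, a form that was not searched.
MCM2: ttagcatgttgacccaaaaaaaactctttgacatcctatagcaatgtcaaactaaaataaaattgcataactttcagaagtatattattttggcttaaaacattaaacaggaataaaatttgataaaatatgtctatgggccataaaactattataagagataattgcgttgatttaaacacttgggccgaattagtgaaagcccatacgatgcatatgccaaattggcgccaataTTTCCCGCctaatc
MCM3: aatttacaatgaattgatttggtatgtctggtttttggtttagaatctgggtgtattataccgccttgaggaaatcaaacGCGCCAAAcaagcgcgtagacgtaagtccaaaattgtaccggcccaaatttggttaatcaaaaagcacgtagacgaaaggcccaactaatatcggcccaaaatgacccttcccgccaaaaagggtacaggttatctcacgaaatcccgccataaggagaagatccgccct
MCM4: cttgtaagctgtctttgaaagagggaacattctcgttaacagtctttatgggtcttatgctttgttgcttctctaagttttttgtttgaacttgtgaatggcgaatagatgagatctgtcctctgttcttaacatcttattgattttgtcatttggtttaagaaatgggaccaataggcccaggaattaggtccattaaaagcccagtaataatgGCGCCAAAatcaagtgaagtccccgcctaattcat
MCM5: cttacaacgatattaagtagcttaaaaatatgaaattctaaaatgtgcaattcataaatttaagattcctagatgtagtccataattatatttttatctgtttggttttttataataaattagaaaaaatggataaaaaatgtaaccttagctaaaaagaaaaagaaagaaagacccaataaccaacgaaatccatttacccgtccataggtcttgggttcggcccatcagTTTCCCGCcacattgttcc
MCM6: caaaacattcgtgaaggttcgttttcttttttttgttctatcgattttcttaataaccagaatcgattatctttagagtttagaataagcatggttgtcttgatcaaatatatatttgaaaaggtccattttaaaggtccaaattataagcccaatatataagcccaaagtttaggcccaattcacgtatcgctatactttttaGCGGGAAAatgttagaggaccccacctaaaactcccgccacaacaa
CDC45: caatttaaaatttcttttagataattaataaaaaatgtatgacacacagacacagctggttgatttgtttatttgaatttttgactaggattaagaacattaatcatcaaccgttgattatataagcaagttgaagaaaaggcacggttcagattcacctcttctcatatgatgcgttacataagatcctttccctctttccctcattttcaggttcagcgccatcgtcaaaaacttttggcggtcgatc

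An 8-base E2F match stood in the windows of 5 of the 6 MCM genes, which were MCM2, MCM3, MCM4, MCM5 and MCM6, and in none of the other members. The same search matched 387 of 27443 protein-coding genes, or 1.41%, and 16 of 61 other replication genes, or 26.2%. MCM2, MCM5 and MCM6 carried TTTCCCGC, which matched 0.619% of all windows, whereas MCM3 and MCM4 carried TTTGGCGC, which matched 0.361%. In 4 of these genes the match began within 50 bases of the start, at 14 bases in MCM2, 35 in MCM4, 19 in MCM5 and 46 in MCM6, while in MCM3 it began 170 bases before the start. Allowing 7 bases added PCNA2, whose match began 8 bases before the start, and raised the share of all windows to 2.9%.

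Site II letters, known from plant promoters of ribosomal and replication genes, were found in the same 6 genes, MCM2 to MCM6 and PCNA2, against 19.2% of all windows. They lay farther from the start than the 8-base E2F match in MCM2, MCM4, MCM5 and MCM6, and nearer to it in MCM3. A telo-box, 8 letters that resemble the plant telomere repeat, was found in PCNA1 alone, against 4.49% of all windows. Of the 250 bases, 137 of the PCNA1 window lay inside AT1G07360 and 178 of the PCNA2 window inside AT2G29580. Which matches fell in those bases was not worked out. The window of MCM7 lay wholly inside the neighbouring gene AT4G02050. MCM7 has another annotated start 739 nt downstream, and TTTCCCGC began 9 bases before that start. CDC6 likewise has another start 410 nt downstream, with TTTCCCGC beginning 177 bases before it. Counting every annotated start, 7 of 10 members held an 8-base match, against 473 of 27443 genes, or 1.72%. These are matches of letters, and binding was not measured.

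**Figure D1:**
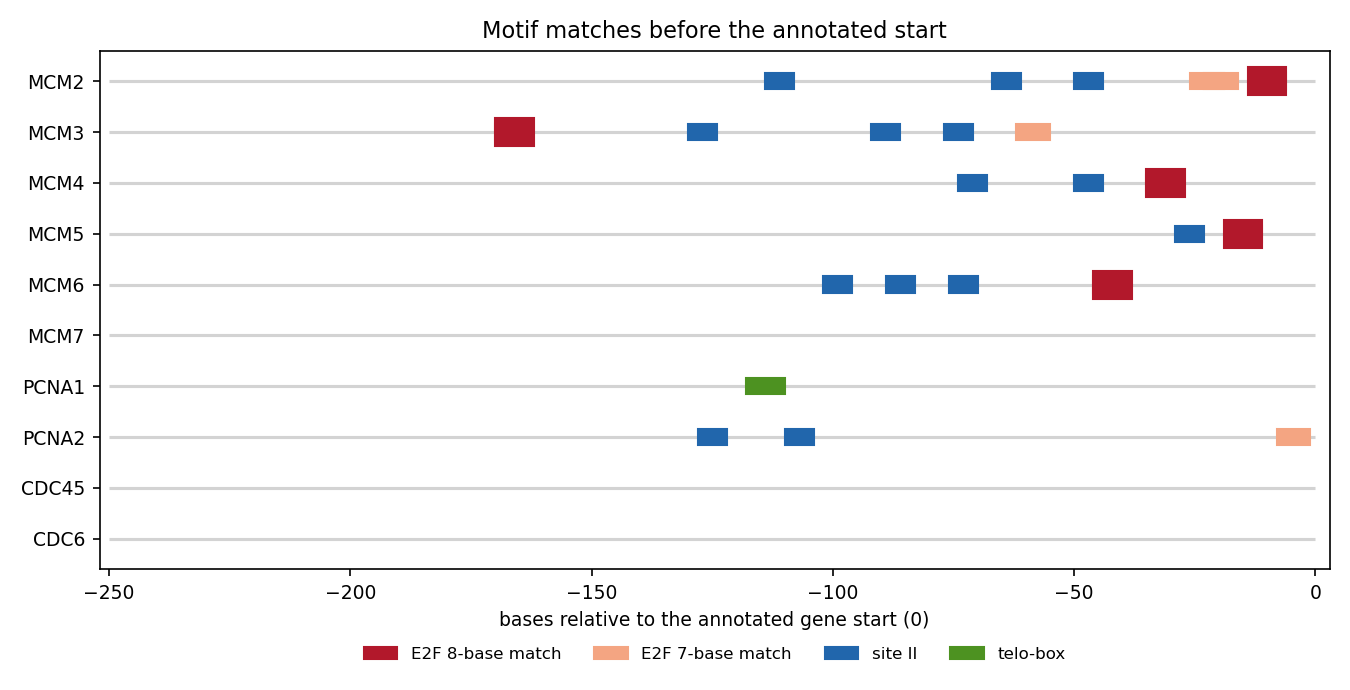
Positions of motif matches in the 250 bases before the annotated start of each of the 10 genes, with the start at 0 on the right and each row a gene. Red blocks are 8-base E2F matches, orange 7-base E2F matches, blue site II letters and green the telo-box. The red block is present in MCM2, MCM3, MCM4, MCM5 and MCM6 and begins 14 to 170 bases before the start.

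Values are FPKM, which divide fragments by the length of the transcript and by all mapped fragments in that library, so levels can be set against each other between genes. Relative depth, estimated from the steps of low values, ran from 0.534 in Col-0 x Col-0 replicate 1 to 1.611 in ein2-5 x ein2-5 replicate 2, a 3.02-fold range. EIN2 itself was at 19.7 to 23.7 FPKM from ein2-5 x ein2-5, 22.2 to 26.2 FPKM from ein2-5 x Col-0, 31.4 to 50 FPKM from Col-0 x ein2-5 and 35.7 to 54.8 FPKM from Col-0 x Col-0. Of 17 endosperm markers 14 were above 0 in all 8 libraries, led by HDG3 at 206 to 357 FPKM, and ESF1.1 was at 0 in all. Of 19 seed coat markers 18 were above 0 in all 8 libraries, led by TT4 at 150 to 447 FPKM, as were 8 of 12 embryo markers, led by LEC1 at 330 to 453 FPKM, so transcripts on all 3 lists were present in the captured material. Replicates of a cross correlated across genes at 0.937 to 0.957 and libraries of different crosses at 0.922 to 0.961.

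All 6 MCM subunits were expressed in every library, in an order of levels that varied little. MCM4 averaged 42.3 FPKM over the 8 libraries, MCM5 39.2, MCM7 34.3, MCM2 26.4, MCM3 22.5 and MCM6 13.8. MCM6 was the lowest of the 6 in 8 of 8 libraries, MCM4 held the highest or next rank in each, and MCM2 and MCM3 held ranks 4 and 5. The highest subunit stood 2.71 to 3.55 times above the lowest within a library. Neighbours in this order overlapped across libraries, with MCM4 at 35.4 to 49.7 FPKM and MCM5 at 32.4 to 49.8 FPKM, whereas the highest MCM6 value, 18.4 FPKM, was below every value of MCM4, MCM5 and MCM7. Mean levels placed the MCM genes between percentile 44.7 (MCM6) and percentile 71.8 (MCM4) of the genes tested.

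MCM2, an outer subunit of the ring that also binds histones, had 32.7 and 26.6 FPKM from ein2-5 x ein2-5, 20.01 and 28.3 FPKM from ein2-5 x Col-0, 25.7 and 29.1 FPKM from Col-0 x ein2-5 and 18.2 and 30.7 FPKM from Col-0 x Col-0. Its lowest and highest libraries differed 1.8-fold, and the gap between the Col-0 x Col-0 libraries, 0.72 on the log2 scale, was larger than the largest gap between cross means, 0.31. MCM5, which closes the ring with MCM2, had 49.8 and 37.0 FPKM from ein2-5 x ein2-5, 33.1 and 39.2 FPKM from ein2-5 x Col-0, 35.8 and 43.3 FPKM from Col-0 x ein2-5 and 32.4 and 42.9 FPKM from Col-0 x Col-0. The libraries of MCM5 overlapped between ein2-5 x ein2-5 and Col-0 x Col-0, as did those of MCM2. MCM3, the partner of MCM5 in the ring, had 27.4 and 21.6 FPKM from ein2-5 x ein2-5, 18.0 and 22.1 FPKM from ein2-5 x Col-0, 21.0 and 25.2 FPKM from Col-0 x ein2-5 and 22.2 and 22.6 FPKM from Col-0 x Col-0. Both Col-0 x Col-0 values of MCM3 lay inside the range of ein2-5 x ein2-5 and above both values of ein2-5 x Col-0.

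MCM4, MCM6 and MCM7 form the catalytic core of the helicase. MCM4 had 49.7 and 46.7 FPKM from ein2-5 x ein2-5, 35.4 and 45.9 FPKM from ein2-5 x Col-0, 38.4 and 40.7 FPKM from Col-0 x ein2-5 and 38.6 and 42.8 FPKM from Col-0 x Col-0, so that its 2 highest libraries were those of ein2-5 x ein2-5. MCM6 had 18.4 and 14.9 FPKM from ein2-5 x ein2-5, 11.6 and 14.0 FPKM from ein2-5 x Col-0, 13.5 and 12.5 FPKM from Col-0 x ein2-5 and 10.9 and 14.6 FPKM from Col-0 x Col-0, again with both ein2-5 x ein2-5 libraries above the other 6. The share of all genes with this order was not counted. Against the Col-0 x Col-0 libraries alone, 27.4% of all genes had both ein2-5 x ein2-5 libraries higher. MCM7 had 41.0 and 36.9 FPKM from ein2-5 x ein2-5, 27.9 and 41.5 FPKM from ein2-5 x Col-0, 32.1 and 34.6 FPKM from Col-0 x ein2-5 and 24.7 and 35.6 FPKM from Col-0 x Col-0. For MCM7 the ein2-5 x Col-0 libraries held the highest of the 8 values and, after Col-0 x Col-0 replicate 1, the lowest.

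The clamp genes were the most abundant members. PCNA1 had 164.1 and 131.4 FPKM from ein2-5 x ein2-5, 161.8 and 199.8 FPKM from ein2-5 x Col-0, 146.0 and 135.8 FPKM from Col-0 x ein2-5 and 102.6 and 158.9 FPKM from Col-0 x Col-0. PCNA2 had 145.4 and 115.7 FPKM from ein2-5 x ein2-5, 144.4 and 140.0 FPKM from ein2-5 x Col-0, 135.9 and 141.3 FPKM from Col-0 x ein2-5 and 114.2 and 145.9 FPKM from Col-0 x Col-0. Their means were at percentiles 91.8 and 90.8 of the genes tested. PCNA2 had the narrowest range of the 10 members, 1.28-fold, against 1.95-fold for PCNA1. The ratio of PCNA1 to PCNA2 was 1.13 and 1.14 for ein2-5 x ein2-5, 1.12 and 1.43 for ein2-5 x Col-0, 1.07 and 0.96 for Col-0 x ein2-5 and 0.9 and 1.09 for Col-0 x Col-0, so both libraries of either ein2-5 mother cross were above the 4 libraries of Col-0 mothers. This ratio was looked at after the values were seen and was not tested. The coding sequences of PCNA1 and PCNA2 (792 and 795 bases in TAIR10.1) were 85.3% identical, with a longest identical run of 41 bases, so fragments from one gene may have been assigned to the other.

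CDC45 and CDC6 were, with MCM6, the members of lowest level. CDC45 had 8.24 and 13.7 FPKM from ein2-5 x ein2-5, 15.8 and 16.4 FPKM from ein2-5 x Col-0, 9.99 and 14.7 FPKM from Col-0 x ein2-5 and 9.33 and 16.4 FPKM from Col-0 x Col-0. Only the ein2-5 x Col-0 libraries were close together, and the other 3 crosses each held a low and a high library. CDC6, the loader of the MCM ring, had 17.4 and 17.6 FPKM from ein2-5 x ein2-5, 10.7 and 13.0 FPKM from ein2-5 x Col-0, 8.22 and 12.1 FPKM from Col-0 x ein2-5 and 11.3 and 18.9 FPKM from Col-0 x Col-0. It had the widest range of the 10 members, 2.29-fold. The fewest estimated fragments in any library were about 12 for CDC45 and about 14 for CDC6. At these numbers counting alone gives an SD of 28.9% and 27.1%. The library with the fewest fragments need not be the one with the lowest FPKM, since depth differed. The corresponding numbers were 17 to 62 fragments for the MCM genes and 56 and 66 for PCNA1 and PCNA2.

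**Figure D2:**
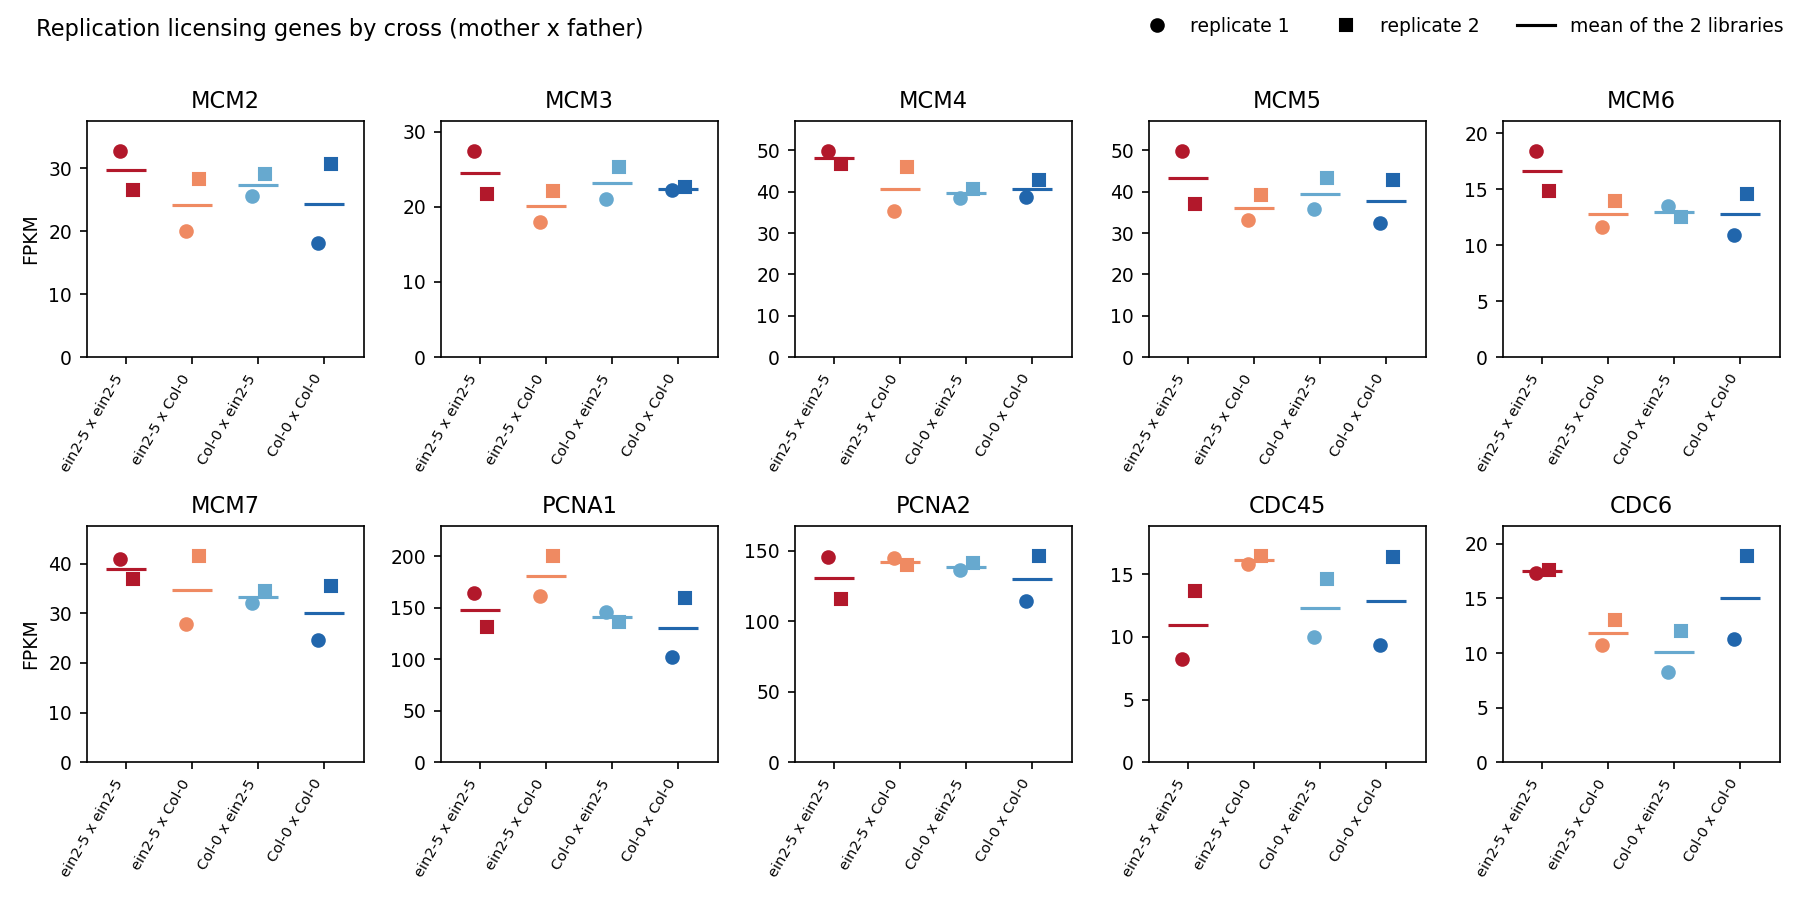
FPKM of each gene (vertical axis from 0, scaled per gene) in the 4 crosses, with circles for replicate 1, squares for replicate 2 and bars for the mean of the 2 libraries. Replicates lie as far apart as crosses for most genes, and both ein2-5 x ein2-5 libraries are above both Col-0 x Col-0 libraries for MCM4, MCM6 and MCM7. Such non-overlap held for 27.4% of all genes tested.

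The largest gap between replicates was set beside the largest gap between cross means. Single libraries vary more than means of 2 libraries, so the first gap tends to be the wider even where crosses are alike. In 9 of 10 members the largest gap between the 2 libraries of a cross was wider than the largest gap between cross means, against 70.7% of the 19719 genes tested. The exception was CDC6, whose largest replicate gap of 0.70 on the log2 scale compared with a largest cross gap of 0.75. The 6 MCM genes were also averaged in each library. Their mean log2(FPKM + 1), as a difference from its mean over the 8 libraries, was 0.31 and 0.05 for ein2-5 x ein2-5, -0.27 and 0.09 for ein2-5 x Col-0, -0.07 and 0.06 for Col-0 x ein2-5 and -0.27 and 0.10 for Col-0 x Col-0. The summed MCM level was 219 and 183.7 FPKM from ein2-5 x ein2-5, 146 and 191 FPKM from ein2-5 x Col-0, 166.5 and 185.4 FPKM from Col-0 x ein2-5 and 147 and 189.2 FPKM from Col-0 x Col-0. Thus the first libraries of ein2-5 x Col-0 and Col-0 x Col-0 were the low ones, the first of ein2-5 x ein2-5 was the high one, and the other 5 lay between -0.07 and 0.10.

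Col-0 x Col-0 replicate 1 gave the lowest value for 6 of the 10 members and ein2-5 x ein2-5 replicate 1 the highest for 5. The shares of all genes with their lowest or highest value in these libraries were not counted. Col-0 x Col-0 replicate 1 was also the shallowest library and the median gene in it lay at -0.14 relative to its own mean over libraries, against a median from -0.03 to 0.13 in the other 7. The depth of ein2-5 x ein2-5 replicate 1, at 1.01, and that of ein2-5 x Col-0 replicate 1, at 0.973, were near the middle of the range. The part of depth in these deviations was not tested.

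**Figure D3:**
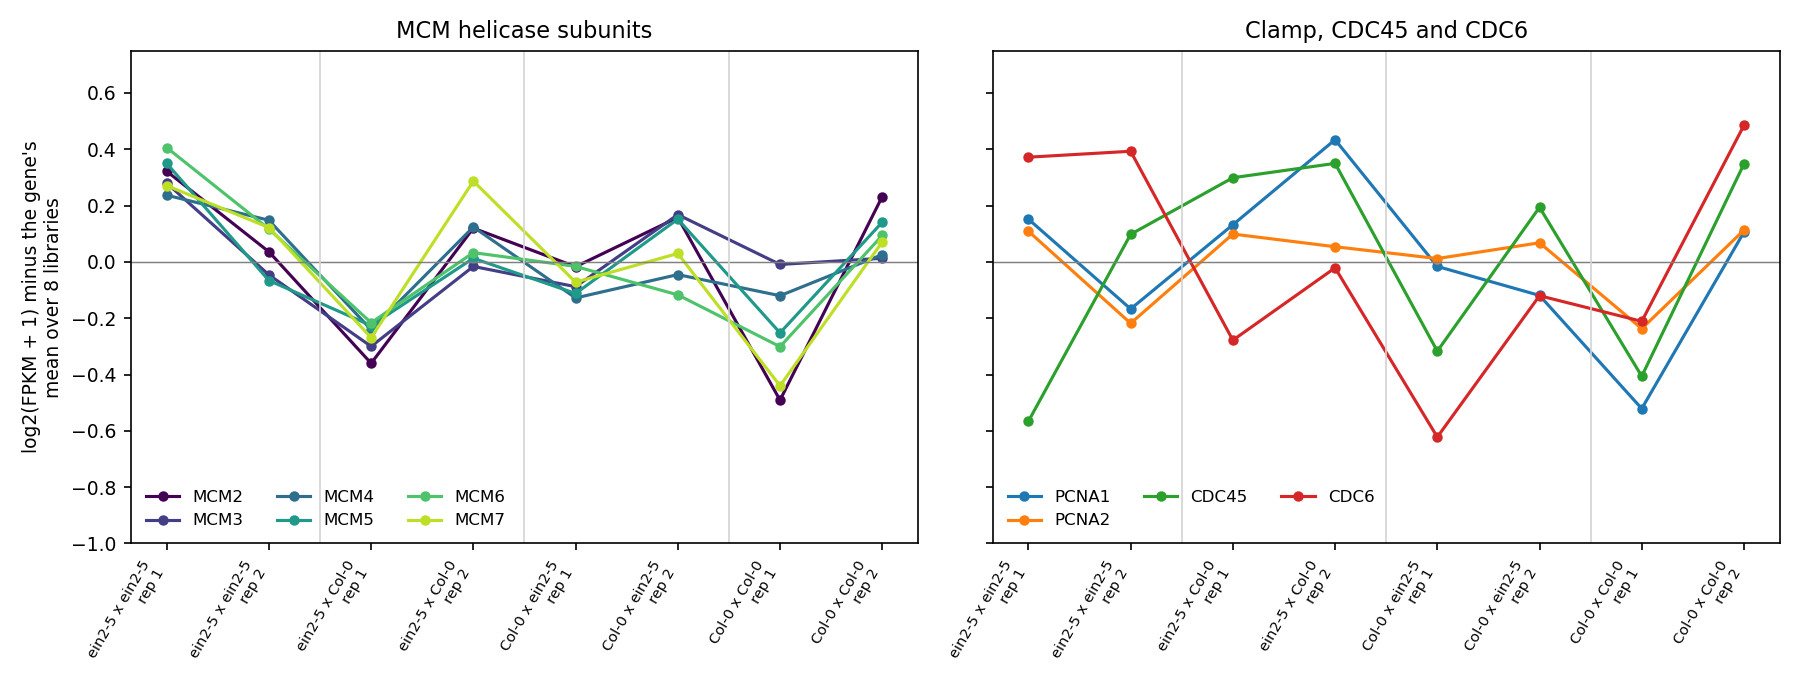
Deviation of each gene's log2(FPKM + 1) from its own mean over 8 libraries (vertical axis), library by library along the horizontal axis, for the MCM subunits on the left and the other 4 members on the right. Lines only join the points of a gene. The 6 MCM lines lie between 0.24 and 0.41 in ein2-5 x ein2-5 replicate 1 and between -0.36 and -0.22 in ein2-5 x Col-0 replicate 1, and spread from -0.49 (MCM2) to -0.01 (MCM3) in Col-0 x Col-0 replicate 1, while CDC45 is at -0.57 in ein2-5 x ein2-5 replicate 1.

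Across the 8 libraries the 15 pairs of MCM genes had Pearson r between 0.54 and 0.91, with a median of 0.81. Without the 2 libraries whose MCM mean was farthest from the median, the first of ein2-5 x Col-0 and of Col-0 x Col-0, r ran from 0.42 to 0.97 with a median of 0.60. MCM2 and MCM5 were a closely matched pair (r = 0.91, Spearman rho = 0.98, and r = 0.97 without those libraries). MCM3 was the least like the others, with r = 0.71 to the mean of the other 5, and MCM3 with MCM7 was the weakest pair at r = 0.54. These coefficients describe 8 libraries that share depth and cross, and no p-value is attached to them.

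Of the other members, CDC6 followed the MCM mean most closely (r = 0.66, rho = 0.71), then PCNA1 (r = 0.49, rho = 0.60) and PCNA2 (r = 0.40, rho = 0.69), and CDC45 did not follow it (r = -0.08, rho = 0.17). The 61 other replication genes had a median r of 0.59 to the MCM mean. The median over 12231 genes with a mean of at least 10 FPKM was 0.15 and their upper quartile 0.44. Other replication genes with an 8-base E2F match had a median r of 0.65 (16 genes) and those without a median of 0.52 (45 genes). Among all genes of at least 10 FPKM the corresponding medians were 0.20 (174 genes) and 0.15 (11783 genes).

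The 5 genes outside the set whose pattern over the 8 libraries was most like the MCM mean were AT2G10950 (r = 0.97), RABE1c (r = 0.95), ATCES1 (r = 0.95), FMN/FHY (r = 0.94) and GRF2 (r = 0.94). AT2G10950 had 42.2 and 32.2 FPKM from ein2-5 x ein2-5, 18.4 and 30.8 FPKM from ein2-5 x Col-0, 21.3 and 28.5 FPKM from Col-0 x ein2-5 and 17.5 and 26.9 FPKM from Col-0 x Col-0. GRF2, a growth-regulating transcription factor, had 31.8 and 24.1 FPKM from ein2-5 x ein2-5, 15.5 and 22 FPKM from ein2-5 x Col-0, 19 and 21 FPKM from Col-0 x ein2-5 and 15.4 and 19.9 FPKM from Col-0 x Col-0. Chosen for their likeness to the MCM mean, both share with the MCM genes a high first library of ein2-5 x ein2-5 and low first libraries of ein2-5 x Col-0 and Col-0 x Col-0. RABE1c (a Rab GTPase of secretion), ATCES1 and FMN/FHY (a riboflavin kinase) varied less, with RABE1c between 135.4 and 169.5 FPKM.

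None of the 10 members was called at an adjusted p under 0.05 in any of 7 comparisons, by limma with Benjamini-Hochberg adjustment over all genes tested. The background was near empty as well. In ein2-5 x ein2-5 versus Col-0 x Col-0, 2 of 19719 genes were called (0.0101%), and 2086 (10.6%) had an unadjusted p under 0.05, among them 0 of 10 members. In the other 6 comparisons 0 genes (0%) were called, while the genes with an unadjusted p under 0.05 were 4% of those tested for ein2-5 x Col-0 and 2.92% for Col-0 x ein2-5 (each versus Col-0 x Col-0), 3.02% between these reciprocal crosses, 7.08% for mothers, 6.08% for fathers and 3.36% for the interaction. The intervals below therefore say how large a difference the data still allow. In bulk tissue, fewer cells or nuclei in S phase and less transcript in each cannot be told apart.

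Between endosperm of ein2-5 x ein2-5 and Col-0 x Col-0, the difference in log2(FPKM + 1) was above 0 for 9 of 10 members and for 6 of 6 MCM genes, with a member median of 0.22. The same difference was above 0 for 61.6% of all genes, with a median of 0.12, against which the members are to be read. With median-ratio scaling, which brought the median of all genes to 0.02, the member median was 0.11 with 8 of 10 above 0, and with quantile normalization (all genes -0.03) it was 0.08 with 7 of 10 above 0 and with MCM3 at -0.07 and PCNA2 at -0.05. With estimated depth as a covariate the member median was 0.13 with 8 of 10 above 0, beside 0.04 for all genes. MCM7 had the largest difference among the members, 0.38 ± 0.24 (SE; 95% interval -0.18 to 0.94; adjusted p = 0.614, limma), or 1.3-fold with an interval from 0.88 to 1.92. MCM6 differed by 0.36 ± 0.25 (interval -0.23 to 0.95, adjusted p = 0.642) and MCM2 by 0.31 ± 0.28 (interval -0.35 to 0.97, adjusted p = 0.712). MCM4 differed by 0.24 ± 0.17 (interval -0.15 to 0.63, adjusted p = 0.645), the narrowest interval of the MCM genes. For MCM5 the difference was 0.20 ± 0.22 (interval -0.31 to 0.70) and for MCM3 0.12 ± 0.21 (interval -0.37 to 0.60). Both libraries of ein2-5 x ein2-5 were above both of Col-0 x Col-0 in 3 members, MCM4, MCM6 and MCM7, and such non-overlap held for 27.4% of all genes.

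CDC6 differed by 0.25 ± 0.31 (interval -0.48 to 0.97) and PCNA1 by 0.20 ± 0.23 (interval -0.32 to 0.72), while PCNA2 was level at 0.01 ± 0.17 (interval -0.38 to 0.39, a fold between 0.77 and 1.31). CDC45 was the only member below 0, at -0.20 ± 0.36, and its interval from -1.04 to 0.63 was the widest. The intervals of all 10 contained 0. For 7 of the 10 the sign depended on a single library. Without Col-0 x Col-0 replicate 1 the member median was -0.03 and MCM2 (-0.05), PCNA1 (-0.11), PCNA2 (-0.17) and CDC6 (-0.10) changed sign, whereas without Col-0 x Col-0 replicate 2 the median was 0.45 and CDC45 stood at 0.17. Without ein2-5 x ein2-5 replicate 1, MCM3 (-0.05), MCM5 (-0.01), PCNA2 (-0.16) and CDC45 (0.13) changed sign. MCM4, MCM6 and MCM7 stayed above 0 in 18 of 18 other settings.

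Summed levels of the marker lists also differed in this contrast, with the seed coat and endosperm sums higher and the embryo sum lower in ein2-5 x ein2-5. The summed level of the 19 seed coat markers was 1178 to 1760 FPKM from ein2-5 x ein2-5 and 720 to 812 FPKM from Col-0 x Col-0, and that of the 17 endosperm markers was 1643 to 2336 FPKM from ein2-5 x ein2-5 and 1048 to 1308 FPKM from Col-0 x Col-0. The 12 embryo markers summed to 608 to 620 FPKM from ein2-5 x ein2-5 and 633 to 736 FPKM from Col-0 x Col-0. LEC1 alone was at 330 to 453 FPKM over the 8 libraries, so the embryo sum leans heavily on that gene. In the reciprocal crosses the seed coat sum was 628 to 1138 FPKM from ein2-5 x Col-0 and 784 to 967 FPKM from Col-0 x ein2-5, the endosperm sum 1135 to 1530 FPKM for ein2-5 x Col-0 and 1162 to 1385 FPKM for Col-0 x ein2-5, and the embryo sum 733 to 753 FPKM for ein2-5 x Col-0 and 689 to 699 FPKM for Col-0 x ein2-5. Their part in the members' differences was not tested.

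In the reciprocal crosses the members lay on both sides of 0. Against Col-0 x Col-0, the member median was 0.01 for ein2-5 x Col-0, with 6 of 10 above 0, and 0.06 for Col-0 x ein2-5, with 7 of 10 above 0, beside medians of 0.02 and 0.06 over all genes, of which 53.5% and 58.2% were above 0. These contrasts share the Col-0 x Col-0 libraries with each other and with the contrast of ein2-5 x ein2-5, and their medians were not tested against each other. With the first Col-0 x Col-0 library left out the medians were -0.13 for ein2-5 x Col-0 and -0.14 for Col-0 x ein2-5, with 1 of 10 above 0 in each, and with the second left out they were 0.26 for ein2-5 x Col-0 and 0.27 for Col-0 x ein2-5, with 9 of 10 above 0 in each. Leaving out ein2-5 x Col-0 replicate 2 gave -0.14 for that cross, with 3 of 10 above 0, and leaving out replicate 1 gave 0.15, with 8 of 10. PCNA1 was the member with the smallest p in ein2-5 x Col-0 versus Col-0 x Col-0, at 0.49 ± 0.23 (interval -0.03 to 1.01, unadjusted p = 0.0626, adjusted p = 0.996 by limma), and its libraries there did not overlap, which held for 15% of all genes in that direction. It remained above 0 in every setting tried, between 0.18 and 0.80 when a library was left out. MCM3 was the only member whose ein2-5 x Col-0 libraries were both below those of Col-0 x Col-0, as 12.5% of all genes were. Between the reciprocal crosses, ein2-5 x Col-0 versus Col-0 x ein2-5, the member median was 0.03 with 6 of 10 above 0 beside 46% of all genes, and PCNA1 and CDC45 were higher without overlap, against 16.1% of all genes.

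Averaged over the father, ein2-5 mothers against Col-0 mothers gave a member median of 0.11, with 9 of 10 members above 0, beside 0.04 and 56.7% for all genes. It was 0.07 with median-ratio scaling and 0.06 with quantile normalization, with 7 of 10 above 0 in each. With the first Col-0 x Col-0 library left out the median was 0.01 with 5 of 10 above 0, and with the second left out it was 0.25 with 9 of 10. PCNA1 led with 0.28 ± 0.16 (interval -0.09 to 0.65, adjusted p = 0.741, limma), and was at 0.12 and 0.43 with those libraries left out in turn. Averaged over the mother, ein2-5 fathers against Col-0 fathers gave a member median of 0.13, with 7 of 10 members above 0, beside 0.08 and 62.6% for all genes. It was 0.07 with median-ratio scaling and 0.02 with quantile normalization, with 6 of 10 above 0 in each. This median ran from 0.03 without ein2-5 x Col-0 replicate 1 to 0.21 without ein2-5 x Col-0 replicate 2, and was 0.06 with the first Col-0 x Col-0 library left out and 0.07 without ein2-5 x ein2-5 replicate 1. MCM2 was at 0.25 ± 0.20 (interval -0.22 to 0.72, adjusted p = 0.811), and at 0.07 and 0.43 with the first and the second Col-0 x Col-0 library left out. CDC45 was at -0.30 ± 0.25 (interval -0.89 to 0.30, adjusted p = 0.82), and at -0.48 and -0.11 with the same libraries left out. With depth as a covariate CDC45 was at -0.55 ± 0.19 (unadjusted p = 0.0257, adjusted p = 0.538, limma). No member kept its libraries apart in either averaged contrast, which 2.26% and 2.66% of all genes did in the higher direction.

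The interaction asks whether an ein2-5 father made a different change with an ein2-5 mother than with a Col-0 mother. Of all members and comparisons, CDC6 in the interaction was the only one with an unadjusted p under 0.05, at 1.04 ± 0.44 (interval 0.01 to 2.07, unadjusted p = 0.0478, adjusted p = 1, limma), where 662 genes, or 3.36%, passed that unadjusted threshold. This is the pattern of its levels given above, with 17.5 ± 0.187 FPKM from ein2-5 x ein2-5, 11.8 ± 1.61 in ein2-5 x Col-0, 10.1 ± 2.72 in Col-0 x ein2-5 and 15.1 ± 5.37 in Col-0 x Col-0 (mean ± SD, n = 2 each). The estimate ran from 0.69 to 1.39 when a library was left out and from 0.81 to 1.11 in the other settings, with unadjusted p from 0.0119 to 0.154 over all of them. The member median of the interaction was 0.14 with 7 of 10 above 0, beside 0.02 and 51.7% for all genes.

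**Figure D4:**
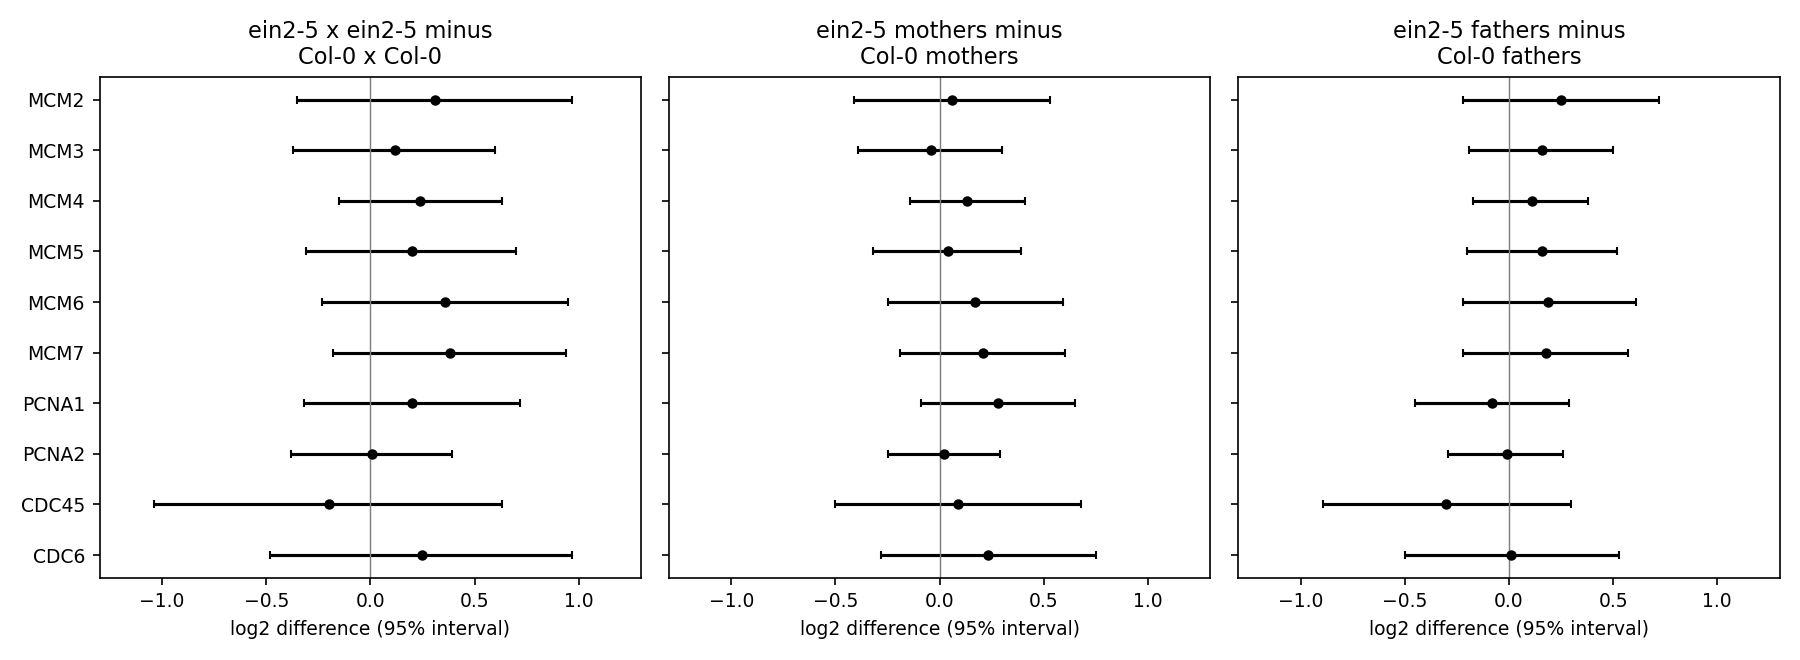
Log2 differences (points) with 95% limma intervals (lines) for the 10 members in 3 comparisons of ein2-5 with Col-0, for both parents, for mothers averaged over fathers and for fathers averaged over mothers. Every interval crosses 0, with CDC45 the widest, from -1.04 to 0.63 in the left panel.

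Other genes of the replication machinery gave a similar picture. All 61 were tested, in 10 classes by role, and 0 were called in any of the 7 comparisons. In ein2-5 x ein2-5 versus Col-0 x Col-0, 51 of 61 had a difference above 0 and the median was 0.24, beside 0.12 and 61.6% for all genes, and 1 had an unadjusted p under 0.05. With median-ratio scaling 45 of 61 were above 0 (median 0.14), with quantile normalization 40 of 61 (median 0.08), and with the first Col-0 x Col-0 library left out 38 of 61 (median 0.10). In 24 of 61 both ein2-5 x ein2-5 libraries were above both Col-0 x Col-0 libraries, against 27.4% of all genes. For ein2-5 mothers 44 of 61 were above 0 with a median of 0.06, which was -0.01 with that library left out, and for ein2-5 fathers 48 of 61 with a median of 0.16, where 4 had an unadjusted p under 0.05 against 6.08% of all genes. The library pattern of the MCM genes recurred, with 50 of 61 below their own mean in Col-0 x Col-0 replicate 1, 43 of 61 in ein2-5 x Col-0 replicate 1 and 8 of 61 in ein2-5 x ein2-5 replicate 1. In that order, the median deviation of the 61 genes was -0.27, -0.14 and 0.17, beside -0.14, 0 and 0.02 for all genes. The share of all genes below their own mean was not counted.

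Every role class had members above 0 and none had a called gene. In ein2-5 x ein2-5 versus Col-0 x Col-0, 7 of 7 origin recognition subunits were above 0 (median 0.28) and 4 of 4 GINS subunits (median 0.46), with the same counts under both rescalings. Among the GINS genes, only PSF1 had both ein2-5 x ein2-5 libraries above both Col-0 x Col-0 libraries. In Col-0 x Col-0 the first library was low for PSF2 (6.39 against 34.34 FPKM) and SLD5 (27.34 against 45.67 FPKM). From ein2-5 x ein2-5, PSF2 had 40.67 and 24.69 FPKM and SLD5 51.14 and 31.95 FPKM. These values lay on both sides of the second Col-0 x Col-0 library. Of the other licensing factors 5 of 7 were above 0 (median 0.24), but 2 of 7 with quantile normalization (median -0.03). At the fork, 9 of 11 DNA polymerase subunits (median 0.17), 6 of 6 clamp loader subunits (median 0.16), 7 of 9 subunits of the single-strand binding protein RPA (median 0.12) and both flap nuclease and ligase genes (median 0.40) were above 0. Of the supply and chromatin genes, 2 of 3 for ribonucleotide reductase (median 0.22) and 2 of 3 for the histone chaperone CAF-1 (median 0.17) were above 0, and so were 7 of 9 E2F, DP and RBR regulators (median 0.28). Quantile normalization likewise took the medians of RPA and of CAF-1 to -0.03, the median of all genes in that setting, and those of the remaining 7 classes stayed above 0.

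The most abundant gene of each class shows the levels around the members. ORC6 of the origin recognition complex had 51.5 and 43.1 FPKM from ein2-5 x ein2-5, 31 and 54 FPKM from ein2-5 x Col-0, 44.7 and 54 FPKM from Col-0 x ein2-5 and 36.9 and 40.3 FPKM from Col-0 x Col-0. SLD5 of GINS had 51.1 and 32 FPKM from ein2-5 x ein2-5, 31 and 41.8 FPKM from ein2-5 x Col-0, 46.5 and 47.7 FPKM from Col-0 x ein2-5 and 27.3 and 45.7 FPKM from Col-0 x Col-0. Like the MCM genes, both had a low first library in ein2-5 x Col-0. Averaged over the 8 libraries, ETG1, a partner of the MCM ring, was at 28.8 FPKM, the polymerase delta subunit POLD4 at 239, the clamp loader subunit RFC4 at 58.5, RPA3A at 161, the DNA ligase LIG1 at 28.6, the ribonucleotide reductase subunit TSO2 at 178, MSI1 of CAF-1 at 166 and DEL2, an atypical E2F factor, at 65.9.

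**Figure D5:**
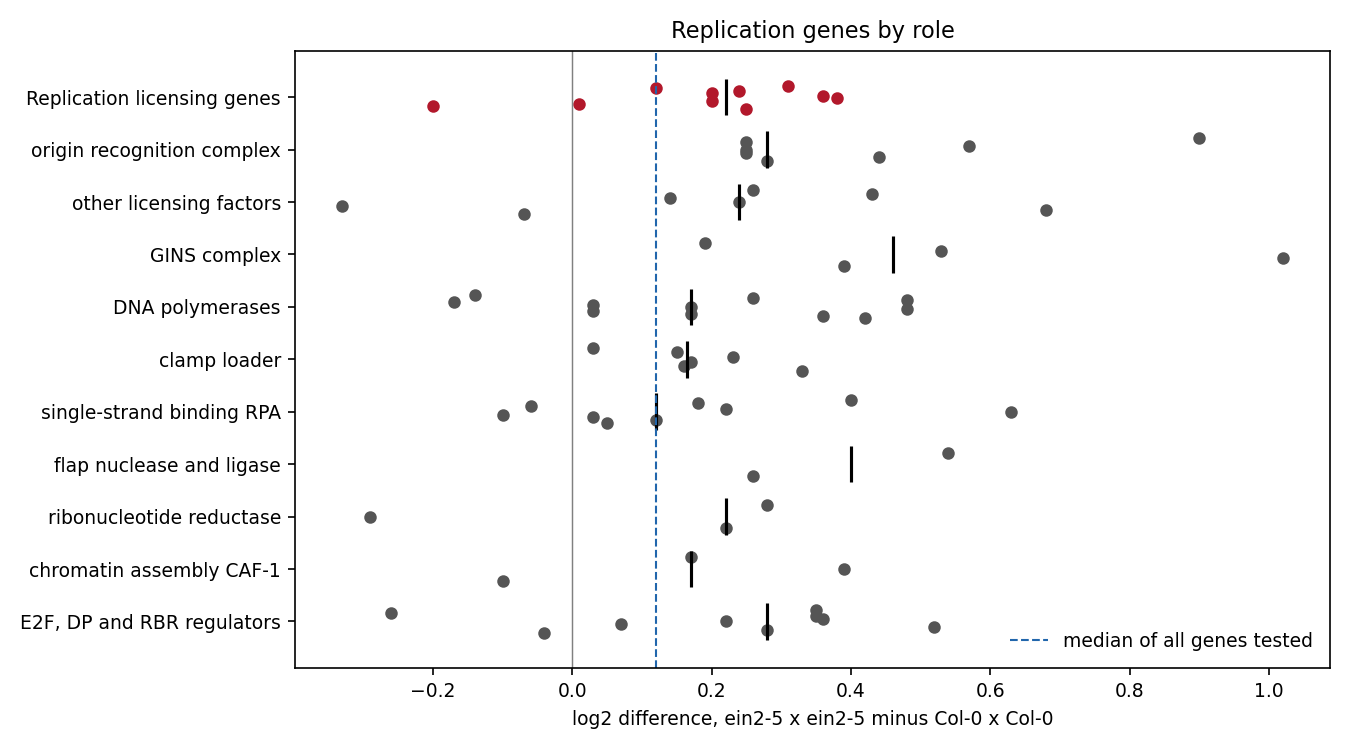
Log2 difference of ein2-5 x ein2-5 minus Col-0 x Col-0 (horizontal axis) for the 10 licensing genes (red) and the 61 other replication genes in 10 role classes (grey), a point per gene. Black ticks are class medians and the dashed line is the median of all genes tested, 0.12. No gene shown was called, and the licensing genes run from -0.20 to 0.38.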

How the data were processed

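Endosperm RNA from 8 libraries, 2 for each of 4 crosses, was grouped by the crosses named in the labels. The deposited values are FPKM, computed by the authors for 34133 genes. TopHat2 2.1.1, SAMtools 1.5, Cufflinks 2.2.1 and the TAIR10 build are named in the submitters' processing notes, and options, filters and strand handling are not given in the sources used here. Of the sample columns 0 were left unused. RefSeq TAIR10.1, which matched 31416 of the gene IDs, gave names, transcript lengths and upstream sequence, and its coordinates may differ from the authors' build.

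The 10 genes and all gene lists were chosen with earlier results of these data known. Genes with at least 1 FPKM in at least 2 libraries (19719) were analysed as log2(FPKM + 1), which understates changes of low genes. limma 3.58.1 in R 4.3.3 (lmFit and eBayes with a variance trend, two-sided) fitted a mean per cross to all 8 libraries, with 4 residual and 3.72 prior degrees of freedom. The Benjamini-Hochberg method was applied to each comparison separately, with calls made at an adjusted p under 0.05. The pipeline was tested on simulated data with the same spread for every gene, which does not show how small a difference it can find in the real values. The labels do not say that replicates came from separate plants, so the p-values reflect only spread among these samples, which may be technical.

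Besides the 10 members, the text names the most abundant gene of each role class of replication genes, any called one (there was none), the 5 genes of at least 10 FPKM most correlated with the MCM mean and the most abundant gene of each marker list.

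No counts accompany the FPKM values. Relative depth came from ratios of low FPKM values between libraries in 2209 genes, with pairs of libraries disagreeing by at most 0.0018 in natural log units. Fragments per gene are rough, since lengths came from another annotation: 52.1% of 1353 low values were whole within 0.06 of a fragment, against 12% by chance. They cover counting error only. Reads of overlapping antisense genes cannot be told apart. Scripts used Python 3.11.15 with pandas 2.3.3, Biopython 1.88 and matplotlib 3.10.9.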

Additional observations from a re-analysis of the deposited data

How the results depend on the processing

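Over 18 other settings (pseudocounts 0.1 and 5, other filters on low values, median-ratio scaling, quantile normalization, no variance trend, a replicate block, depth as a covariate, only the crosses compared, and each library left out), 0 of 1230 combinations of member, comparison and setting were called, and the smallest adjusted p was 0.239 by limma. Restricting the fit to the crosses compared leaves the averaged contrasts and the interaction as they were, since these use all 8 libraries. Where a library was left out, the lone library of its cross is assumed to vary like the others. No alternative was chosen after the values were seen. With 2 libraries a cross and about 12 to 66 estimated fragments where a member had the fewest, differences inside the intervals given remain possible. Differences larger than these intervals could also have gone uncalled after adjustment over all genes tested.

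In ein2-5 x ein2-5 versus Col-0 x Col-0, the sign of MCM3 (0.12) turned with quantile normalization (-0.07), and that of PCNA2 (0.01) turned with median-ratio scaling (-0.10), quantile normalization (-0.05) and depth as a covariate (-0.06). With a library left out, MCM2 ran from -0.05 to 0.67, MCM3 from -0.05 to 0.28, MCM5 from -0.01 to 0.41, PCNA1 from -0.11 to 0.51, PCNA2 from -0.17 to 0.18, CDC45 from -0.58 to 0.17 and CDC6 from -0.10 to 0.59. Leaving out a library moved the member median between -0.03 and 0.45 in that comparison, between -0.14 and 0.26 in ein2-5 x Col-0 versus Col-0 x Col-0, between -0.14 and 0.27 in Col-0 x ein2-5 versus Col-0 x Col-0, between 0.01 and 0.25 for mothers, between 0.03 and 0.21 for fathers and between -0.13 and 0.32 in the interaction. The spread of the member mean within a cross was 0.21 (SD). Apart from the library left out, the cause of these changes was not tested.

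The number of genes called over the whole table in ein2-5 x ein2-5 versus Col-0 x Col-0, 2 as reported, was 0 with pseudocount 0.1, 0 with a filter of at least 5 FPKM, 4 with median-ratio scaling, 11 without the variance trend, 0 with depth as a covariate, 8 with the crosses compared only and 0 to 32 with a library left out (32 without Col-0 x Col-0 replicate 2). From 0 genes, ein2-5 x Col-0 versus Col-0 x Col-0 gave 1 with pseudocount 0.1, 3 without the trend, 2 with depth as a covariate and 0 to 11 with a library left out. Col-0 x ein2-5 versus Col-0 x Col-0 gave 1 without the trend and 0 to 15 with a library left out, and ein2-5 x Col-0 versus Col-0 x ein2-5 gave 1 with pseudocount 0.1, 4 without the trend, 1 with depth as a covariate, 3 with the crosses compared only and 0 to 5 with a library left out. Mothers gave 1 without the trend and 0 to 12, fathers 0 to 10 and the interaction 0 to 3 with a library left out.

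Over all genes tested, same-numbered libraries of different crosses deviated together only weakly, at r between 0.01 and 0.14. The labels do not say whether a replicate number marks a shared batch, and these values cannot settle it. The replicate block took the number of genes called in ein2-5 x ein2-5 versus Col-0 x Col-0 to 0, against 2 without it, and called no member.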
